A study of Mus musculus with 16 samples.

Results

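The guanylate-binding proteins (GBP) and the immunity-related GTPases (IRG) were followed in mouse tumors through 10 genes: Gbp2, Gbp3, Gbp4, Gbp5, Gbp6, Gbp7, Igtp, Irgm1, Irgm2 and Iigp1. The genes were chosen by name, through the symbols of their Ensembl identifiers, and were 10 of the 22298 genes in the count tables. All 16 tumors came from wild-type mice of the 615 line, injected intraperitoneally at 6 weeks of age with 500000 cells of MFC, a forestomach cancer line of mouse origin. The 8 tumors of the vehicle group came from mice given PBS and the 8 of the IL-33 treatment group from mice given IL-33 at 20 μg/kg, both by the same route every 2 days. IL-33 is an alarmin of the interleukin-1 family. Each library was made from polyadenylated RNA of a piece of tumor, which holds cancer cells together with immune and stromal cells of the host.

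GBP and IRG proteins are among the most strongly induced products of interferon-γ in mice. Interferon-γ acts through its receptor and the kinases Jak1 and Jak2, and the motifs bound near the genes it induces include the gamma-activated site (GAS) and the interferon-stimulated response element (ISRE), which factors of the Irf family can bind. GBP proteins coat the membranes of vacuoles and bacteria and open them to inflammasome sensors, and effector IRG proteins such as Iigp1 attack the vacuoles of intracellular parasites. Irgm1, Irgm2 and Igtp are the regulatory IRG proteins, which keep the effectors inactive on the membranes of the host cell. In tumors these genes are commonly read as a sign of interferon-γ acting on cancer cells, macrophages and endothelium.

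The genes lie in clusters. In GENCODE M21 (GRCm38), Gbp5 (chr3:142493978-142522344), Gbp7 (chr3:142530342-142550149), Gbp3 (chr3:142560026-142573209) and Gbp2 (chr3:142620602-142638008) follow each other on the plus strand of chromosome 3. Gbp4 (chr5:105115767-105139586) and Gbp6 (chr5:105270702-105293698) lie on the minus strand of chromosome 5. Irgm1 (chr11:48861968-48871683, minus strand), Igtp (chr11:58199556-58207591) and Irgm2 (chr11:58199618-58222782) lie on chromosome 11, apart from the effector Iigp1. Igtp and Irgm2 share 162 exon bases, Gbp6 shares 1726 with the model Gm43302 (149 counts in all), and Gbp4 shares 61 with Gbp8 and 60 with Gbp9. Strand use was not stated for the counting, and members of these clusters are similar in sequence, so the split of reads between neighbours is uncertain.

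RefSeq promoter sequences (GRCm38.p6) were matched for 7 of the 10 genes and are shown because factors activated by interferon are known to bind short motifs close to the start of such genes. Gbp4 and Gbp6 had no entry, and Iigp1 was not analysed here. The stretches run 5′ to 3′ on the strand of the gene and end at the base before the start of transcription. Capitals mark matches to GAS (TTCNNNGAA, the same on both strands) or ISRE (GAAA, 2 free bases and GAAA, or TTTC, 2 free bases and TTTC for a match on the other strand).
Gbp2, chr3:142620553-142620662: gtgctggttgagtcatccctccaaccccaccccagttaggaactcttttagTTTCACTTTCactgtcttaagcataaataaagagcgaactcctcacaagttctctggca
Gbp3, chr3:142559934-142560043: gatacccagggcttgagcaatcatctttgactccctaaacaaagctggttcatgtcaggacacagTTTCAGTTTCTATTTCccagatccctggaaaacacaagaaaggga
Gbp5, chr3:142496684-142496933: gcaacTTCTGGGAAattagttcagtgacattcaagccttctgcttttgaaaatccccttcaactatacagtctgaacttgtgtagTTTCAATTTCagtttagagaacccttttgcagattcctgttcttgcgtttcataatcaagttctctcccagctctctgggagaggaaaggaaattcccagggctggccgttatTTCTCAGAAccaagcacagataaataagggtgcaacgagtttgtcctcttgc
Gbp7, chr3:142530226-142530335: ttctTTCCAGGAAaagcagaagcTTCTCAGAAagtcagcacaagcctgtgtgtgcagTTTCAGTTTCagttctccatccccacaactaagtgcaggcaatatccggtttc
Irgm1, chr11:48871421-48871530, minus strand: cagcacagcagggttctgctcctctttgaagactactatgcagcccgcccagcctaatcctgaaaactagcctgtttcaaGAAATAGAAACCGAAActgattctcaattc
Igtp, chr11:58199446-58199555: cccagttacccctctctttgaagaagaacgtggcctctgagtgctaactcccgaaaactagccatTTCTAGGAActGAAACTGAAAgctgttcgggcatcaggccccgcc
Irgm2, chr11:58214867-58214976: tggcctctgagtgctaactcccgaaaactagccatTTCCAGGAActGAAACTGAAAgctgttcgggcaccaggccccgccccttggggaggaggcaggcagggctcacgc

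All 7 genes held ISRE letters in at least 1 window of 250 bases before and 50 after a start, against 3.99% of the 27025 genes in the table. GAS letters were found in 4 of the 7 (Gbp5, Gbp7, Igtp and Irgm2), against 9.55% of all genes, and the same 4 held both, against 0.614%. Gbp3 had a second RefSeq start, and the 250 bases before it (chr3:142560106-142560355) held neither motif. In Gbp3 and Irgm1 a pair of ISRE matches overlapped, starting 45 and 39 bases before the first start in Gbp3 and 30 and 24 before it in Irgm1. In Igtp and Irgm2 the GAS lay just ahead of the ISRE, and 63 of 65 bases around them were identical in both genes. Of 9 other GBP and IRG genes with an entry, 5 held ISRE letters and 3 held GAS letters. A match is a description of the letters and not a measured binding site.

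Total counts spanned 14139268 to 24290794 in vehicle tumors and 16569613 to 24288893 in IL-33 tumors. Levels are given as CPM, the count scaled to the total count of the tumor. The smallest count of any of the 10 genes in any tumor was 30, so counting error was small beside the spread between tumors. In IL-33 replicate 7 the summed level of 7 uterus and oviduct markers was 1337 CPM and that of 7 ovary markers 1676 CPM, against at most 5.32 and 7.97 CPM in the other tumors, and 5 adipose markers summed to 2271 CPM there against at most 243 elsewhere. Vehicle replicate 4 stood apart by its scaling factor (TMM, 0.640, against 0.895 or more in the others) and by low levels of long transcripts, described with the genes it touches. Among the epithelial markers, Krt8 (181 to 975 CPM) and Krt19 (44.5 to 690 CPM) were present in all tumors, while outside IL-33 replicate 7 Epcam, Krt18, Cdh1 and Cldn7 did not exceed 2.40, 1.83, 3.01 and 0.468 CPM. In bulk tissue, fewer cells of a type and less RNA per cell cannot be told apart.

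For the GBP genes of chromosome 3, the ranges of both groups overlapped. Gbp2, which is recruited to the vacuoles of intracellular parasites, had a median of 48.6 CPM in the vehicle group (lowest 17.3, highest 178) and of 67.9 CPM in the IL-33 treatment group (lowest 20.4, highest 163). Gbp3 spanned 9.26 to 148 CPM without IL-33 (median 41.2) and 16.8 to 153 CPM with it (median 43.6). The lowest vehicle value of both genes belonged to replicate 4 and the lowest IL-33 value to replicate 6. Gbp5, which promotes assembly of the Nlrp3 inflammasome, lay between 2.12 and 77.7 CPM (median 19.98) in vehicle tumors and between 7.03 and 82.0 CPM (median 20.7) in IL-33 tumors. Gbp7, linked to oxidative killing of bacteria, lay between 5.73 and 87.4 CPM (median 44.1) in vehicle tumors and between 20.4 and 139 CPM (median 42.5) in IL-33 tumors. For Gbp7, 2 IL-33 tumors (replicates 4 and 8) exceeded every vehicle tumor, and the rest fell inside the vehicle range.

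On chromosome 5, Gbp4 was split more sharply than any other member, with 11 tumors between 4.00 and 14.02 CPM and 5 tumors between 71.6 and 125 CPM. Its median was 11.8 CPM in vehicle tumors and 12.2 CPM in IL-33 tumors. The high tumors were vehicle replicates 2 and 7 and IL-33 replicates 3, 4 and 8, so both groups had high and low tumors. Gbp6 had a median of 46.9 CPM (lowest 11.3, highest 177) in vehicle tumors and of 39.1 CPM (lowest 10.2, highest 223) in IL-33 tumors.

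**Figure D1:**
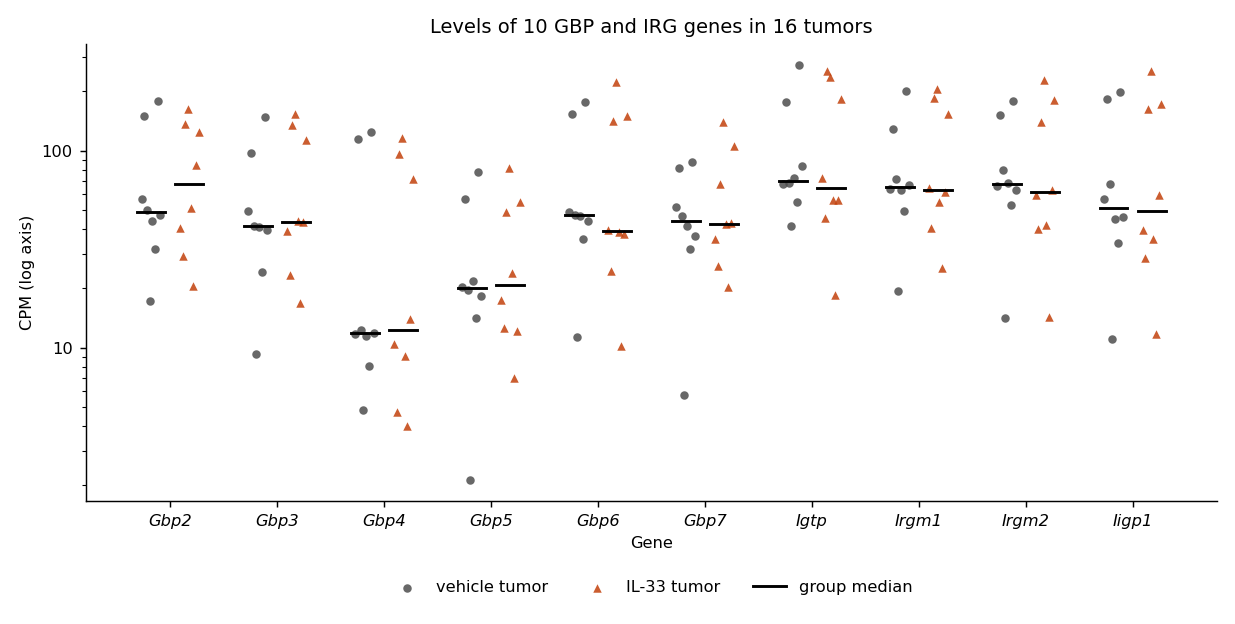
Level of each of the 10 genes in CPM (log axis), 1 point per tumor, with circles for the 8 vehicle tumors, triangles for the 8 IL-33 tumors and a black bar at each group median. The groups overlapped for all 10 genes, and Gbp4 shows a gap between 14.02 and 71.6 CPM.

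Among the regulatory IRG genes, Igtp had the highest counts of the 10 genes. Its median was 70.3 CPM in the vehicle group (lowest 41.6, highest 273) and 64.5 CPM in the IL-33 treatment group (lowest 18.5, highest 252). Irgm1, which is also tied to autophagy and control of mycobacteria, ranged from 19.4 to 202 CPM (median 65.2) in vehicle tumors and from 25.4 to 205 CPM (median 62.9) in IL-33 tumors. Irgm2 spanned 14.1 to 179 CPM (median 67.5) without IL-33 and 14.4 to 228 CPM (median 61.4) with it. The IL-33 medians of these 3 genes were a little below the vehicle medians, while the highest value of Irgm1 and of Irgm2 was in IL-33 replicate 4 and that of Igtp in vehicle replicate 7. The effector Iigp1 ranged from 11.1 to 198 CPM (median 51.4) in vehicle tumors and from 11.7 to 254 CPM (median 49.4) in IL-33 tumors, again with both groups covering nearly the same span.

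The study was designed to ask how intraperitoneal IL-33 changes the tumors, and no difference between the groups was detected for any of the 10 genes. By edgeR's quasi-likelihood test with Benjamini-Hochberg adjustment, 0 of the 10 genes had an adjusted p under 0.05 (0% of the 16817 genes tested were called) and 0 of 10 had an unadjusted p under 0.05 (11.2% of all genes, 9.99% higher and 1.17% lower). DESeq2 and limma voom also gave 0 of the 10 at an unadjusted p under 0.05. No gene of the 10 had groups that did not overlap, and the same held for all genes tested (0%). With n = 8 and 8, Gbp3 had the largest log2 fold change, 0.29 with SE 0.49 (95% confidence interval -0.74 to 1.32, adjusted p = 0.888 by edgeR), from 56.2 ± 44.9 CPM (mean ± SD) in vehicle tumors to 70.9 ± 53.9 CPM in IL-33 tumors. Igtp had the smallest, 0.07 with SE 0.48 (interval -0.95 to 1.09, adjusted p = 0.982 by edgeR), from 105 ± 79.3 to 115 ± 93.3 CPM. Over the 10 genes the lower bounds of the intervals lay between -1.65 and -0.59 and the upper bounds between 1.08 and 1.80 on the log2 scale.

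The other 8 fitted changes lay between those values. They were 0.12 for Gbp2, 0.08 for Gbp4, 0.13 for Gbp5, 0.19 for Gbp6, 0.28 for Gbp7, 0.20 for Irgm1, 0.13 for Irgm2 and 0.20 for Iigp1, with SE between 0.41 and 0.82 and adjusted p between 0.871 and 0.987. All 10 fitted values were above 0, with a median of 0.16 against 0.06 for all genes tested. The group medians of CPM did not share that sign, since 6 of the 10 genes (Gbp6, Gbp7, Igtp, Irgm1, Irgm2 and Iigp1) had the lower median in the IL-33 treatment group. On log2(CPM + 0.5), an exact permutation test (two-sided, 12870 assignments of tumors) gave p between 0.561 and 0.976 for the 10 genes, and on that scale the difference of Igtp was -0.07.

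Leaving out IL-33 replicate 7, the tumor with reproductive-tract and adipose transcripts, moved the fitted log2 fold changes to between 0.15 (Gbp2) and 0.40 (Gbp3). The median of the 10 genes was then 0.29, against -0.01 for all 15803 genes tested. Again 0 of 10 had an adjusted p under 0.05 by edgeR (0% of all genes) and 0 of 10 an unadjusted p under 0.05 (4.12% of all genes, 1.83% higher and 2.29% lower). The direction rested on single tumors. Without vehicle replicate 4 only 5 of the 10 fitted values were above 0, without IL-33 replicate 4 only 2 of 10, and without IL-33 replicate 3 or 8 only 6 of 10.

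**Figure D2:**
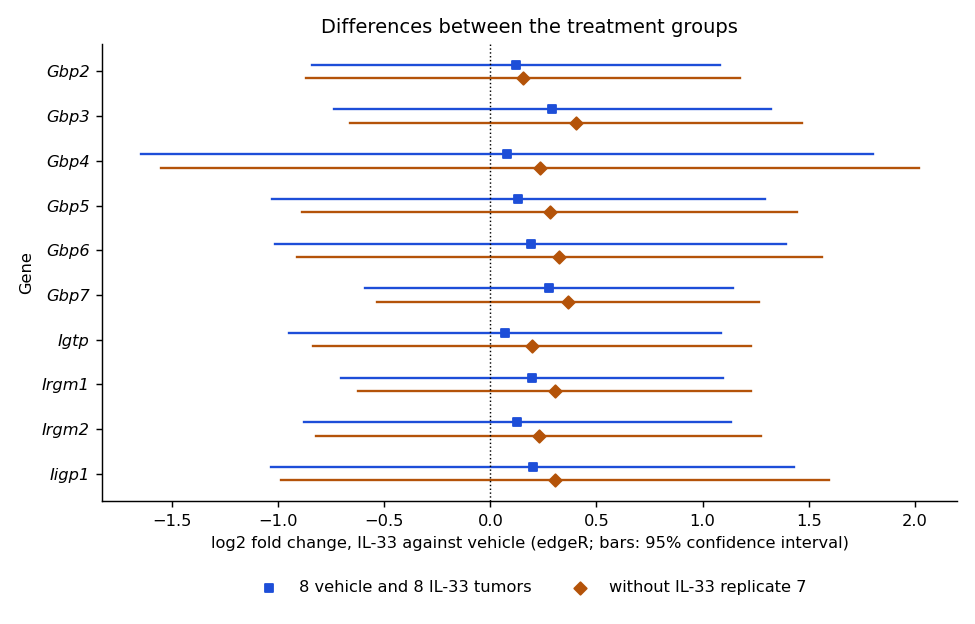
Fitted log2 fold change of each gene, IL-33 against vehicle (edgeR), with 95% confidence intervals as bars, for all 16 tumors (squares) and without IL-33 replicate 7 (diamonds). Every interval crosses 0, and leaving out that tumor shifts each value upward.

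The tumors differed far more within the groups than between them. The highest tumor exceeded the lowest 10.3-fold for Gbp2 and 38.6-fold for Gbp5, the smallest and largest such ratios of the 10, and the lowest Gbp5 value was that of vehicle replicate 4. The SD of log2 CPM within groups had a median of 1.08 over the 10 genes, from 0.92 for Irgm1 to 1.76 for Gbp4, beside a median of 0.48 over the 13109 genes at a mean of 1 CPM or more. For each of the 10 genes the 5 highest tumors were the same: vehicle replicates 2 and 7 and IL-33 replicates 3, 4 and 8. The step from the fifth to the sixth tumor was 1.32-fold for Gbp7 and 5.11-fold for Gbp4, the smallest and the largest of the 10. At the other end, by CPM of the total count, vehicle replicate 4 was the lowest tumor for 7 genes and IL-33 replicate 6 for the other 3 (Gbp4, Gbp6 and Igtp). With TMM factors the mean standardized log2 CPM of the 10 genes was lower in IL-33 replicate 6 (-1.51) than in vehicle replicate 4 (-1.43).

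The summed level of the 10 genes lay between 137 and 1643 CPM in vehicle tumors and between 149 and 1798 CPM in IL-33 tumors. The 5 high tumors held 1295 CPM (vehicle replicate 2), 1643 CPM (vehicle replicate 7), 1365 CPM (IL-33 replicate 3), 1798 CPM (IL-33 replicate 4) and 1309 CPM (IL-33 replicate 8). In the remaining 11 tumors the sum lay between 137 and 504 CPM, so there was a gap between the high tumors and the rest, with members of both treatment groups on either side.

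**Figure D3:**
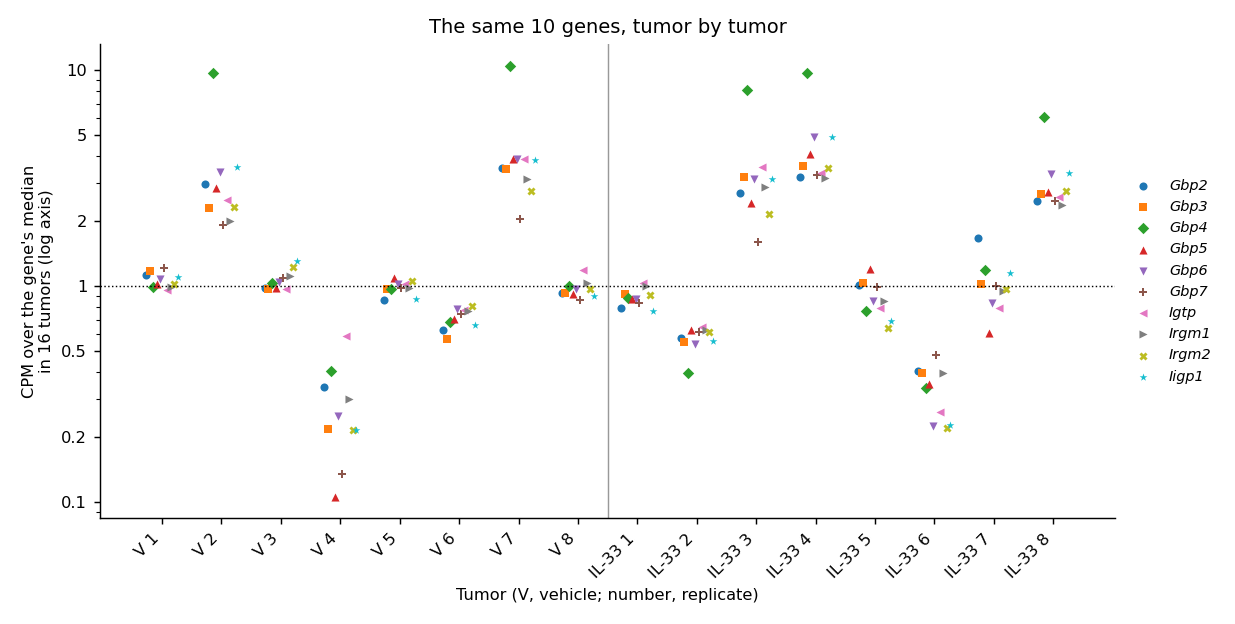
CPM of each gene divided by its median over the 16 tumors (log axis), with tumors along the horizontal axis, vehicle on the left and IL-33 on the right. All 10 genes stand at 1.601 or more in vehicle replicates 2 and 7 and IL-33 replicates 3, 4 and 8, and at 0.591 or less in vehicle replicate 4 and IL-33 replicate 6.

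The genes also moved together from tumor to tumor. Pearson's r of log2 CPM between members over the 16 tumors had a median of 0.944 in the 45 pairs, from 0.741 (Gbp7 and Igtp) to 0.987 (Gbp6 and Iigp1), and the median of Spearman's rho was 0.906. These points share libraries, scaling and depth, and the values are given as a description. Because the 5 high tumors stand apart, r was also taken over the other 11, where its median was 0.801 and its lowest value 0.247, again for Gbp7 and Igtp. Vehicle replicate 4 and IL-33 replicate 6, the tumors lowest in the members, are among these 11, and r was not taken without both. Over all genes at 1 CPM or more, the median r with the mean standardized level of the 10 genes was -0.0174.

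In vehicle replicate 4 the genes fell out of proportion with each other. Igtp, the shortest member with 2022 bases of merged exons, was at 41.6 CPM there against a median of 72.2 CPM in the other 7 vehicle tumors, while Gbp5, with 6637 bases, was at 2.12 against 20.4 CPM, and Gbp7, with 5614 bases, at 5.73 against 46.5 CPM. The longest member, Gbp4 (7494 bases), was at 4.81 against 11.9 CPM and did not follow that order. Over all genes the median log2 ratio of this tumor to the other vehicle tumors was 0.00 in the shortest and -1.28 in the longest of 3 equal classes of genes by length. The median of the 10 genes was -2.06, with 9 of 10 below the median of their own length class, and the part of length in it was not tested. Of the 5 high tumors, vehicle replicate 7 and IL-33 replicate 3 also had lower long than short genes, by -0.45 and -0.64, while in the other 3 that difference lay between -0.02 and 0.15. Without vehicle replicate 4 the fitted log2 fold changes lay between -0.07 and 0.15.

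**Figure D4:**
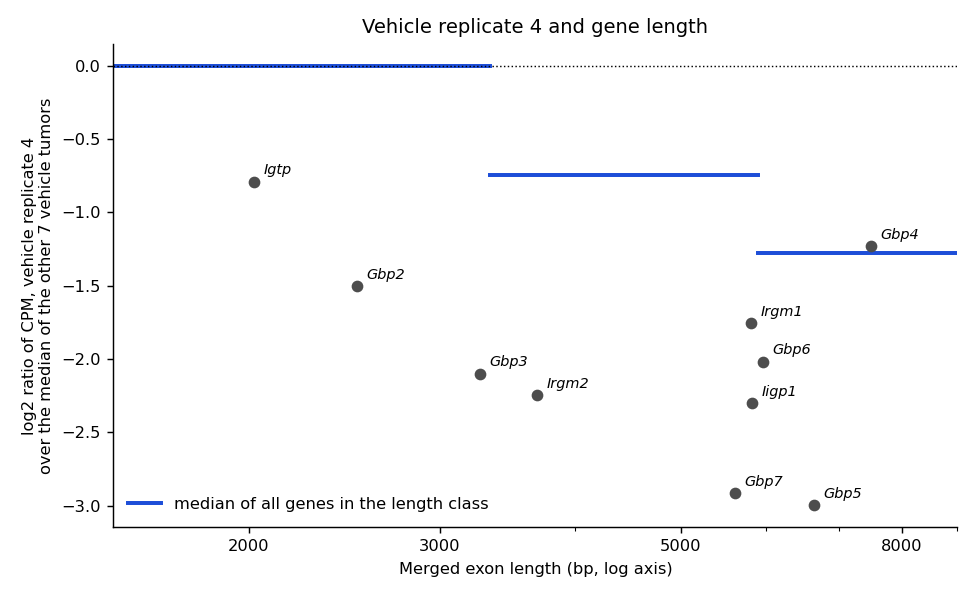
log2 ratio of CPM in vehicle replicate 4 to the median of the other 7 vehicle tumors, against merged exon length (bp, log axis). Points are the 10 genes, and blue lines are the medians of all genes in 3 length classes, from 0.00 for the shortest to -1.28 for the longest. Igtp lies highest and Gbp5 lowest.

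By CPM of the total count, the 10 genes as a group were near their medians in IL-33 replicate 7 (median ratio 0.992). This tumor had the highest TMM factor of the 16 (1.242). With TMM factors the mean standardized log2 CPM of the 10 genes was -0.474 there. That was lower than in all other tumors except vehicle replicates 4 and 6 and IL-33 replicates 2 and 6. By CPM of the total count, the mix of the genes also differed. Gbp2 was at 84.8 CPM, 1.68 times its median over the 16 tumors, next below the 5 high tumors. Gbp5 was at 12.1 CPM, 0.607 times its median. Iigp1 was at 1.16 times and Igtp at 0.798 times the median. Endothelial markers were also high in this tumor, with a summed level of 803 CPM for 6 genes against at most 223 CPM elsewhere, and the part of other tissue in these values was not tested.

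Levels were compared between genes as CPM divided by exon length in kb, over the 16 tumors. Igtp led with 54.4 ± 41.5 CPM per kb (mean ± SD, n = 16), followed by Gbp2 (30.4), Irgm2 (24.4), Gbp3 (19.5), Irgm1 (15.6), Iigp1 (15.1), Gbp6 (12.9), Gbp7 (9.61), Gbp4 (5.21) and Gbp5 (4.61). Neighbours in this order were compared within tumors by a two-sided exact sign-flip permutation test of the log2 ratio, adjusted over the 9 neighbour pairs. Igtp lay above Gbp2 in 15 of 16 tumors (adjusted permutation p = 0.000824), and neighbours down to Gbp6 differed with adjusted permutation p of at most 0.0189. The order was set from these same tumors, so the tests are no independent support for it. It also ran nearly against the merged exon length by which the levels were divided. Igtp (2022 bases) and Gbp2 (2516) were the shortest, and Gbp5 (6637) and Gbp4 (7494) the longest. Gbp6 shares 1726 of its exon bases with Gm43302. The parts of exon length and shared bases in this order were not tested. Gbp6 and Gbp7 did not differ beyond their spread (mean log2 ratio 0.19 ± 0.56 SD, 10 of 16 tumors, adjusted permutation p = 0.186). Nor did Gbp4 and Gbp5, where the mean log2 ratio was -0.38 ± 0.88 SD although Gbp4 had the higher mean level (adjusted permutation p = 0.121). The remaining pair, Gbp7 and Gbp4, differed by 1.64 ± 1.09 SD on the log2 scale.

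Most other genes of both families followed the members, and 10 of 16 had r of 0.8 or more over the 16 tumors. Of 17 further GBP and IRG genes listed, 16 were in the tables, and 0 had an unadjusted p under 0.05 by edgeR. Their median log2 fold change was 0.23, with 14 of 16 values above 0. Tgtp2, an interferon-inducible GTPase of the IRG family, correlated most closely with the members of all genes at 1 CPM or more (r = 0.987 over 16 tumors, 0.963 over the 11 without the high tumors). Gbp10, Ifi47 and Gbp9 were also among the 10 most alike genes, with r of 0.973, 0.964 and 0.961. A negative r was found for Irgq, an IRG-like gene (-0.870 over 16 tumors, -0.602 over 11), and for Irgc1 (-0.450 and -0.413). Irgc1 had only 21 counts over the 16 tumors and was at 0 in 7 of them, so its r rests on few reads. The r of 9930111J21Rik1 was 0.063 and that of 9930111J21Rik2 was 0.539. The level of Irgq was 19.7 CPM in vehicle replicate 7 and 19.2 CPM in IL-33 replicate 3, the lowest values of the 16 tumors, and 49.2 CPM in IL-33 replicate 6, a tumor low in the members. In vehicle replicate 4, also low in the members, Irgq was at 30.1 CPM.

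Among the 10 genes most alike to the members, by r of log2 CPM over the 16 tumors, were Tgtp2, Gbp10, Ifi47, Tlr1, Lcp1, Trim5, Gbp9, Trim21 and Trim12c, with r between 0.958 and 0.987. Without the 5 high tumors their r lay between 0.855 (Trim12c) and 0.963 (Tgtp2). An r of 0.9 or more was found for 104 of 13099 genes (0.794%). In the 50 most alike genes, 8 were other GBP or IRG genes, and 13 were in any of the lists. The rest were in none of them and were not sorted by cell type.

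Upstream of these genes, the ligand Ifng was measured at low counts. Vehicle tumors held 0.0707 to 3.32 CPM (median 0.180) and IL-33 tumors 0 to 2.10 CPM (median 0.252), with log2 fold change -0.05 and adjusted p = 0.993 by edgeR. Its 5 highest tumors were those high in the members, led by vehicle replicate 7 and IL-33 replicate 4, and in IL-33 replicate 6 its count was 0. Irf1, a transcription factor that interferon-γ induces, ranged from 39.9 to 255 CPM (median 61.3) in vehicle tumors and from 32.5 to 206 CPM (median 76.3) in IL-33 tumors, and its r with the members was 0.905 over 16 but 0.411 over 11 tumors.

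The receptor and kinase genes varied little with the members. Over 16 tumors r was 0.258 for Ifngr1, 0.111 for Ifngr2, -0.068 for Jak1 and 0.411 for Jak2. Of 26 tested genes of interferon ligands and signaling, 1 had an unadjusted p under 0.05, against 11.2% of all genes. It was Socs3, a feedback inhibitor of cytokine signaling (log2 fold change 0.29, adjusted p = 0.418 by edgeR). Socs1, the inhibitor that interferon-γ itself induces, had r = 0.861 with the members and a log2 fold change of -0.05. The median log2 fold change of the 26 genes was 0.11. Ifnl3 was at 0 in all 16 tumors and Ifnb1 in 6 of them.

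Among 16 other targets of interferon-γ, the chemokine genes Cxcl9, Cxcl10 and Cxcl11, which draw T cells, had r of 0.953, 0.913 and 0.909 with the members. Cxcl9 spanned 4.31 to 197 CPM in vehicle tumors and 2.27 to 108 CPM in IL-33 tumors, and its log2 fold change was -0.25 (adjusted p = 0.954 by edgeR). Genes of the immunoproteasome and peptide transport varied less closely with the members: r was 0.553 for Psmb8, 0.561 for Psmb9 and 0.659 for Tap1. The median r of the 16 genes was 0.724 over 16 tumors and -0.026 over the 11 lower tumors. Those 11 include vehicle replicate 4 and IL-33 replicate 7, and with only these tumors left out the median r was 0.877. None of them had an unadjusted p under 0.05, and their median log2 fold change was 0.05. Without IL-33 replicate 7, Tap1 alone did (log2 fold change 0.54, adjusted p = 0.964 by edgeR), against 4.12% of all genes.

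Targets shared with type I interferon were not high in every tumor high in the GBP and IRG genes. The median r of 20 such genes was 0.788 over 16 tumors and 0.473 over 11, and 0 of 20 had an unadjusted p under 0.05, with a median log2 fold change of 0.25. Vehicle replicate 2 was high in the members (1295 CPM summed), yet Ifit1 was at 68.9 CPM there, inside the range of 20.6 to 92.9 CPM of the 11 lower tumors, and Isg15 was at 77.4 CPM. Ifit1 reached 128 CPM in vehicle replicate 7 and 134, 187 and 159 CPM in IL-33 replicates 3, 4 and 8. Thus 4 of the 5 tumors high in GBP and IRG genes were also the highest for Ifit1, and the other was not. In IL-33 replicate 7 Ifit1 was at 20.6 CPM, its lowest value, while the summed members were at 475 CPM.

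**Figure D5:**
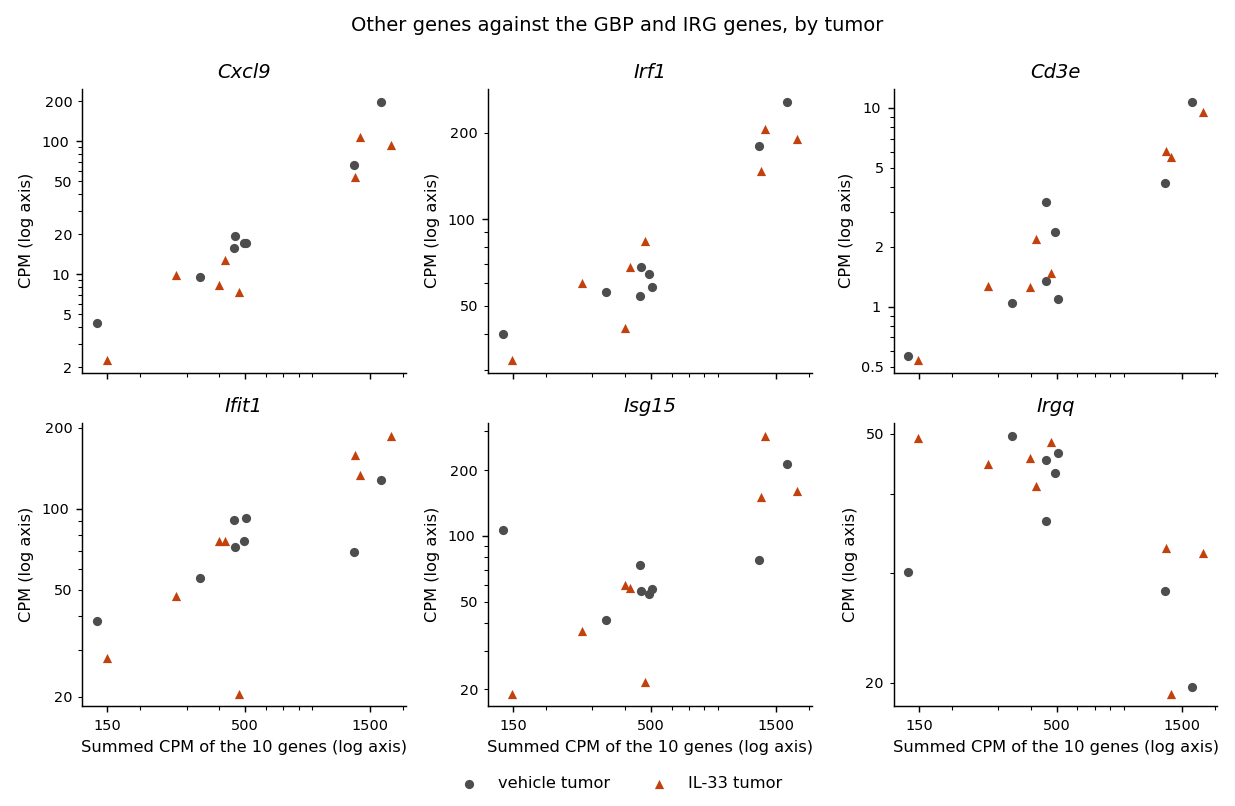
CPM of Cxcl9, Irf1, Cd3e, Ifit1, Isg15 and Irgq (vertical, log axes) against the summed CPM of the 10 GBP and IRG genes (horizontal, log axis), 1 point per tumor, circles for vehicle and triangles for IL-33. Cxcl9 reaches 197 CPM in a vehicle tumor and 108 CPM in an IL-33 tumor, Ifit1 is at 68.9 CPM in a tumor with 1295 CPM of the members, and Irgq is at 19.2 to 32.9 CPM in the 5 tumors high in the members.

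Partners of the GTPases were read from lists. Of 9 inflammasome genes, 1 had an unadjusted p under 0.05, against 11.2% of all genes. It was Naip5, a sensor of bacterial flagellin (log2 fold change 0.78, adjusted p = 0.418 by edgeR). The inflammasome sensor Nlrp3 had r = 0.870 with the members, while Aim2, a sensor of DNA, had 0.004. These were the extremes over 16 tumors, where the median r of the inflammasome genes was 0.600. Over the 11 lower tumors their median was -0.068 and their highest value 0.562. Of 12 autophagy genes, some of which place GBP and IRG proteins on vacuoles, 0 had an unadjusted p under 0.05, and 9 had a negative r with the members. Map1lc3b (r = -0.925) and Gabarapl1 (r = -0.890), which encode proteins of the autophagosome membrane, had the most negative values. The 4 genes of the list around the IL-33 receptor had a median r of 0.109, and 0 of 4 had an unadjusted p under 0.05.

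Markers of T cells moved with the GBP and IRG genes from tumor to tumor. All 8 T cell markers had a positive r with the members, with a median of 0.845 over 16 tumors and 0.489 over 11. Summed, they reached 8.51 to 90.5 CPM in vehicle tumors and 4.87 to 79.4 CPM in IL-33 tumors, and Cd3d was at 0 in 1 tumor. The highest sums were 90.5 CPM in vehicle replicate 7 and 79.4 CPM in IL-33 replicate 4, both tumors high in the members. Cd3e, a chain of the T cell receptor complex, had r = 0.930. None of the 8 had an unadjusted p under 0.05 between the groups, and their median log2 fold change was 0.24. The part of T cell number in the level of the 10 genes was not tested.

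The listed markers of other immune cells had lower medians of r. The median r was 0.676 for 8 NK and cytotoxic markers (47.4 to 220 CPM summed in vehicle tumors, 27.2 to 265 CPM in IL-33 tumors), 0.760 for 8 dendritic cell markers (12.6 to 115 and 22.9 to 157 CPM) and 0.555 for 6 B cell markers (1.48 to 66.7 and 2.33 to 47.9 CPM). For 8 macrophage markers it was 0.483 (1041 to 2956 and 614 to 2733 CPM), with Adgre1 at 0.900 and Mrc1, the mannose receptor of M2 macrophages, at -0.388. Over the 11 lower tumors the medians were 0.257 for NK and cytotoxic, 0.299 for dendritic cell, 0.082 for B cell and 0.163 for macrophage markers. Without vehicle replicate 4 and IL-33 replicate 7 they were higher, at 0.803, 0.791, 0.686 and 0.774 in the same order. The median of the T cell markers was then 0.912. In these 4 lists 0 genes had an unadjusted p under 0.05, and without IL-33 replicate 7 only Klrb1c, a receptor of NK cells, did (log2 fold change 0.96, adjusted p = 0.964 by edgeR). Cd209a, Siglech, Ms4a1, Cd79a and Cr2 were at 0 in 1 to 7 tumors. Each part in the level of the GTPases was not tested.

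For most lists of non-immune tissue markers, r with the members depended on IL-33 replicate 7, while for mesothelial and adipose markers it changed little without that tumor. Over the 16 tumors the median r was 0.145 for endothelial markers, -0.066 for epithelial markers, -0.222 for mesothelial markers, -0.285 for adipose markers, -0.131 for uterus and oviduct markers, -0.131 for ovary markers and 0.200 for lymph node stroma markers. Without that tumor it was 0.510 for endothelial, 0.408 for ovary, 0.373 for lymph node stroma, 0.174 for epithelial, -0.0079 for uterus and oviduct, -0.183 for mesothelial and -0.258 for adipose markers. Outside it the ovary markers summed to at most 7.97 CPM and the uterus and oviduct markers to at most 5.32 CPM. Foxl2, Fshr and Wnt7a were at 0 in 15 of the 16 tumors. The r of the ovary and of the uterus and oviduct markers without that tumor therefore rests on few reads and describes no tissue. An unadjusted p under 0.05, in the direction of higher levels with IL-33, was found for 4 of 6 epithelial, 7 of 7 uterus and oviduct, 7 of 7 ovary, 1 of 5 mesothelial, 1 of 5 adipose and 1 of 4 lymph node stroma markers. The share over all genes was 9.99%. Without IL-33 replicate 7, Krt18 (log2 fold change -2.27) and Ccl21a (log2 fold change -3.52) had an unadjusted p under 0.05, both in the direction of lower levels with IL-33, and 0 of the rest did.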

How the data were processed

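The authors deposited raw read counts per gene for each of 16 tumors, without normalization. Libraries were made from mRNA purified on polyT. Per the submitters' processing notes the tools were HISAT2 and featureCounts and the genome build was mm10, with no versions. Groups came from the labels, which do not state that each tumor came from a separate mouse, so p-values measure only the spread between these samples, which may be technical. Every pair of libraries differed by more than sampling noise, by a chi-square over genes. Symbols, positions and merged exon lengths came from GENCODE M21 (22255 of 22298 identifiers matched). Promoter sequences came from RefSeq.

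Genes whose counts summed to 10 or more (16817 genes) were fitted with edgeR 4.0.16 in R 4.3.3 (TMM, glmQLFit, glmQLFTest, Benjamini-Hochberg adjustment). Correlations used TMM-scaled log2 CPM (prior count 2). CPM values in the text use the total count alone, and permutation tests used them with a pseudocount of 0.5. DESeq2 1.42.0 and limma 3.58.1 were alternatives. The models were tested on simulated counts, where most planted changes were recovered at low spread between samples. The planted changes were larger than any fitted for the 10 genes, so that test does not measure power for them. Python 3.11.15 with scipy 1.17.1 was used for the rest. Same-numbered tumors did not deviate together, so the numbers were not treated as pairs.

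The 10 genes, the 20 gene lists and the tests were chosen with earlier results of these data known. The lists held the members, other GBP and IRG genes, interferon ligands and signaling, interferon-γ targets, type I interferon targets, inflammasome and autophagy partners, the IL-33 receptor, and markers of T cells, NK cells, macrophages, dendritic cells, B cells, endothelium, epithelium, uterus and oviduct, ovary, mesothelium, adipose tissue and lymph node stroma. Named genes were the members, genes of these lists and the 10 genes at a mean of 1 CPM or more with the highest r to the members. Within the lists, examples were picked after their values had been seen. The correlations without the 5 high tumors and the permutation tests without vehicle replicate 4 were added after the data had been seen. So were the correlations without vehicle replicate 4 and IL-33 replicate 7. Intervals and counts cover no error of library preparation. The values of 1 named gene are not reported here.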

Additional observations from a re-analysis of the deposited data

How the results depend on the processing

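None of the 10 genes had an adjusted or unadjusted p under 0.05 in any of the 25 alternatives fitted, and 32 of 250 fitted log2 fold changes had the other sign. Leaving out 1 tumor at a time gave -0.083 to 0.44 for Gbp2, 0.06 to 0.66 for Gbp3, -0.33 to 0.65 for Gbp4, -0.19 to 0.52 for Gbp5, -0.18 to 0.52 for Gbp6, 0.0019 to 0.45 for Gbp7, -0.22 to 0.41 for Igtp, -0.019 to 0.51 for Irgm1, -0.16 to 0.37 for Irgm2 and -0.17 to 0.53 for Iigp1. The highest of these values came without vehicle replicate 7, and the lowest without IL-33 replicate 4, or without IL-33 replicate 3 for Igtp. The median of the 10 moved between -0.15 and 0.51, and the alternatives with all 16 tumors gave 0.07 to 0.21. limma voom gave -0.088 for Irgm2. With the replicate number as a replicate block, Gbp6 was at -0.11, Igtp at -0.15, Irgm2 at -0.17 and Iigp1 at -0.10, with 246 genes higher and 72 lower at an unadjusted p under 0.05. Same-numbered tumors correlated between -0.46 and 0.38, and 2 of 8 correlated best with their own number. The pairing changed no call of the 10 genes.

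In the permutation tests no p was under 0.05 in any of 60 alternatives, and 19 differences had the other sign. TMM-scaled CPM gave -0.040 for Gbp6 and -0.070 for Irgm2. Leaving out vehicle replicate 4, IL-33 replicate 7 or both gave -0.075 to 0.16 for Gbp2, -0.15 to 0.18 for Gbp4, -0.17 to 0.39 for Gbp5, -0.25 to 0.12 for Gbp6, -0.038 to 0.37 for Gbp7, -0.22 to 0.011 for Igtp, -0.078 to 0.23 for Irgm1, -0.30 to 0.041 for Irgm2 and -0.22 to 0.11 for Iigp1.

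Over all genes, those higher at an unadjusted p under 0.05 numbered 424 with DESeq2, 498 with filterByExpr and 522 with limma voom, and those lower numbered 444 with limma voom and 101 without TMM factors. Leaving out 1 tumor gave 289 to 1902 genes higher and 111 to 362 lower, and IL-33 replicate 7 was the tumor without which the fewest were higher. With that tumor left out, DESeq2 gave 286 higher, 392 lower and 1 gene with an adjusted p under 0.05 (Alas2, log2 fold change -3.45), which is not among the 10. The cause of these shifts was not tested. The smallest count of the 10 genes in any tumor was 30, so their intervals mainly reflect the spread between tumors, which may be technical. The effect of read depth was not tested.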
